A study of Mus musculus with 21 samples.

Results

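The 50 proteasome genes measured in mouse midbrain were examined after injection of the dopaminergic neurotoxin MPTP, with irisin given before or after the toxin. The genes were chosen by symbol alone, as every gene whose name starts with Psm, one letter from a to g and a digit, without the names that mark pseudogenes. The rule took 50 of the 33622 genes present in both tables. They comprised 8 alpha ring genes, 7 constitutive beta ring genes, 4 inducible or thymic beta genes, 6 ATPases and 11 non-ATPase subunits of the 19S cap, 6 activators and inhibitors, 7 assembly chaperones, and Psmc3ip, which matches by name but encodes a meiotic recombination factor and no subunit. The 31 subunits that every cell uses (the alpha and beta rings without the testis gene Psma8, and the 19S cap) are called the core below.

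RNA-seq covered 21 male C57BL/6 mice with a labelled age of 6 weeks, in 7 groups of 3, and all mice received intraperitoneal injections. In the pre-treatment experiment, control mice received ddH2O for 10 days, MPTP treated mice received ddH2O for 5 days and then MPTP at 30 mg/kg per day for 5 days, and the third group received irisin at 200 ug/kg per day for 5 days and then the same course of MPTP. In the experiment with delayed treatment, control mice again received ddH2O for 10 days, 1 group received ddH2O for 5 days and then irisin for 5 days without MPTP, 1 group received MPTP for 5 days and then ddH2O for 5 days, and 1 group received MPTP for 5 days and then irisin for 5 days, at the same doses. The labels give the tissue as midbrain, whereas the methods describe nigral tissue removed by hand, so a sample holds neurons and glia together, and fewer cells of a type cannot be told apart from less RNA per cell.

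The proteasome degrades proteins that carry ubiquitin chains. Its 20S barrel is made of outer alpha rings, which gate the entry, and inner beta rings, in which Psmb5, Psmb6 and Psmb7 carry the proteolytic sites. The 19S cap binds the chain, removes it and drives the substrate into the barrel with a ring of ATPases (Psmc genes). Under interferon the catalytic subunits can be replaced by Psmb8, Psmb9 and Psmb10, which gives the immunoproteasome. When proteasome activity is low, the transcription factor Nfe2l1 raises the transcription of subunit genes together, through antioxidant response elements. Protein aggregates that escape degradation mark the dopaminergic neurons lost in Parkinson's disease, and MPTP lesions in mice are a model of that loss.

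The antioxidant response element was sought as TGACNNNGC on both strands of the RefSeq promoters of GRCm38.p6, each reaching from 250 bases before to 50 bases after a start site. Promoters were found for 42 of the 50 genes, and 6 of these 42 (14.3%) held the motif, against 14.0% of the 27025 genes with a promoter. The 6 stretches are shown because they are the places in these promoters where the element's letters occur, with the motif in capitals and each read 5′ to 3′ on the strand of its gene.
Psmb5, chr14:54618023-54618052, minus strand: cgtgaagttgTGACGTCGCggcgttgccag
Psmb6, chr11:70525338-70525367, plus strand: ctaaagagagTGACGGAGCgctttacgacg
Psmd9, chr5:123228149-123228178, plus strand: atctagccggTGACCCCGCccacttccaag
Psme4, chr11:30771758-30771787, plus strand: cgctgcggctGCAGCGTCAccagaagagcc
Psmc6, chr14:45329587-45329616, plus strand: ccagccagtaGCTAAGTCAggcattgctca
Psmd12, chr11:107479278-107479307, plus strand: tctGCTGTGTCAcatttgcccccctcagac
In Psmb5, Psmb6 and Psmd9 the motif ran with the gene, and in Psme4, Psmc6 and Psmd12 it lay on the opposite strand. It began within 50 bases of the start site in Psmb5, Psmb6, Psmd9 and Psme4, and more than 200 bases before it in Psmc6 and Psmd12. A match in letters is a description of the promoter and not a binding site.

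The libraries held 66653781 to 75637604 counts per mouse with pre-treatment and 48843585 to 77203445 with delayed treatment. The 50 genes together took 0.359 to 0.384% of the counts in the first and 0.375 to 0.407% in the second. Of 36 marker genes of midbrain cell types, 0 had an adjusted p under 0.05 in any comparison, where 0.00456 to 0.132% of all genes did. The summed level of 7 dopaminergic markers was 454 to 846 over all mice in CPM, the counts scaled to the library's size. Of the 7, 1 was at 0 in a mouse of 3 groups. The 3 choroid plexus markers together varied between mice from 6.44 to 1610 CPM.

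The core subunits were among the more abundant transcripts of the midbrain. Levels between genes are compared in FPKM, which divides counts by gene length and library size, as means over the mice of an experiment. The median core subunit stood at 29.5 FPKM with pre-treatment and 29.1 FPKM with delayed treatment, against medians of 2.11 and 2.20 FPKM over all tested genes, which placed it at percentiles 94.3 and 93.4. Psmc5, an ATPase of the 19S base, was highest at 152 and 177 FPKM, and Psmd11, a scaffold subunit of the 19S lid, was lowest of the core at 8.32 and 8.81 FPKM. Subunits that occur in equal number in the particle thus differed in FPKM by 18.3-fold and 20.1-fold. In CPM, which are not divided by length, the core spanned 5.38-fold and 5.24-fold.

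Within the core, Psmc5, Psmc1 and Psma6 led the order of FPKM in both experiments. In the pre-treatment experiment they stood at 152, 103 and 90.8 FPKM, each further from the next than the SD between mice. Psmb4 and Psmb5 followed at 46.3 and 46.2 FPKM and did not differ beyond that SD. This order rests on the division by length, and among the 50 genes Psma6 ranked only 7 and 15 by CPM and Psmb5 32 and 27. In the FPKM order of all 50 genes, 12 core subunits lay further from the next gene than the SD between mice with pre-treatment and 14 with delayed treatment. At the other end of the alpha ring, Psma8, the testis form of an alpha subunit, averaged 0.132 FPKM in each experiment with 0 to 49 counts per mouse.

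Most genes outside the core stood below the core median. Among activators, Psme3, the nuclear PA28 gamma, was highest at 36.1 and 39.8 FPKM, above the core median in both experiments. Psme2b, a retrocopy of the interferon-inducible activator gene Psme2, was lowest at 5.17 FPKM in the pre-treatment experiment, and its reads can be hard to separate from those of Psme2. Among assembly chaperones, Psmd10 (gankyrin, which escorts an ATPase into the 19S base) was highest at 11.3 and 11.1 FPKM and Psmg3 lowest at 2.40 and 3.04 FPKM. Psmc3ip stood at 0.974 and 1.03 FPKM.

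**Figure D1:**
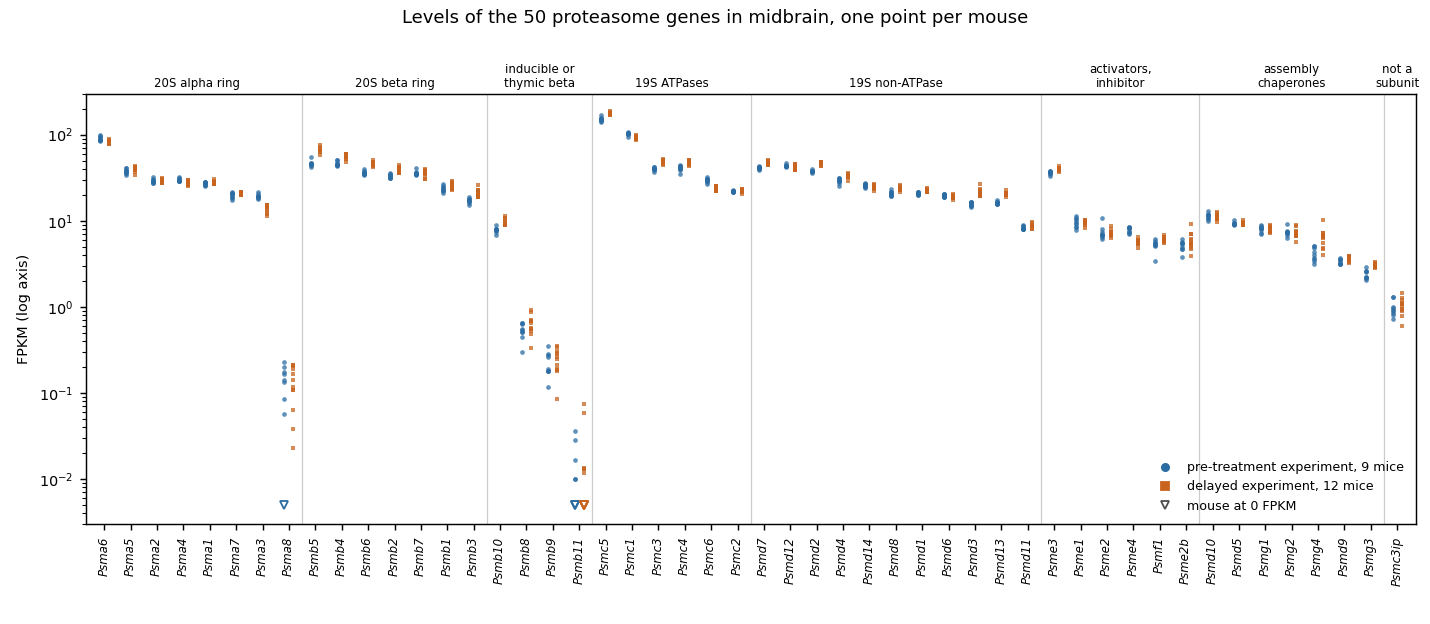
FPKM of each of the 50 genes on a log axis, grouped by role, with one point per mouse for the 9 mice of the pre-treatment experiment (circles) and the 12 of the delayed experiment (squares), and open triangles for mice at 0. Core subunits lie between 7.92 and 191 FPKM with little spread between mice, whereas Psmb8, Psmb9, Psma8 and Psmb11 lie below 1 FPKM.

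Core subunits varied little between mice of the same group. Their median SD between mice was 0.063 on the log2 CPM scale with pre-treatment and 0.076 with delayed treatment, against 0.265 and 0.253 over all tested genes. The steadiest were Psmc2, an ATPase, with 0.016 in the first experiment, and Psmd1, the largest scaffold of the 19S base, with 0.038 in the second. The most variable core subunits were Psmc5 with 0.096 and Psmb3 with 0.159. Core subunits also had more counts than most genes, which lowers counting error, and the part of depth in the smaller SD was not tested.

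The inducible catalytic subunits were scarce, with 1 exception. Psmb8, the inducible counterpart of the chymotrypsin-like Psmb5, averaged 0.531 and 0.630 FPKM, and Psmb9, the counterpart of the caspase-like Psmb6, 0.225 and 0.245 FPKM. Both genes lie in the MHC region of chromosome 17, with Psmb8 at chr17:34197721-34201454 and Psmb9 at chr17:34181987-34187764 (GRCm38). Psmb10, the counterpart of the trypsin-like Psmb7 on chromosome 8, reached 7.87 and 9.68 FPKM. Psmb11, the beta subunit of the thymic cortex, had 0 to 23 counts per mouse, was listed at 0 in 9 of 21 mice, and was the only member removed by the filter on low counts within the experiments.

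As a share of its constitutive partner in FPKM, Psmb8 ranged from 0.480 to 1.44% of Psmb5 over the 21 mice, and Psmb9 from 0.184 to 1.01% of Psmb6. Psmb10 ranged from 19.01 to 31.9% of Psmb7. In the pre-treatment experiment the Psmb8 share was 1.17% ± 0.218 in control mice, 1.29% ± 0.146 with MPTP and 0.984% ± 0.258 with irisin before MPTP (SD, n = 3 mice each). In the delayed experiment it was 0.727% ± 0.223 in control mice, 1.09% ± 0.311 with irisin alone, 1.01% ± 0.309 with MPTP and 0.946% ± 0.218 with irisin after MPTP. Each mouse given irisin before MPTP lay below each MPTP treated mouse, at most 1.14% against at least 1.15%, and all other pairs of groups within an experiment overlapped.

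The Psmb10 share was 21.7% ± 0.501, 22.7% ± 1.11 and 21.2% ± 1.94 in the control, MPTP and irisin before MPTP groups. It was 27.4% ± 1.03, 25.9% ± 2.83, 28.4% ± 3.81 and 26.4% ± 3.02 in the control, irisin alone, MPTP and irisin after MPTP groups of the delayed experiment. The groups overlapped in each experiment. The Psmb9 share was 0.620% ± 0.133, 0.555% ± 0.232 and 0.684% ± 0.279 in the pre-treatment groups, which overlapped too. With irisin alone it was 0.408% ± 0.00883, and each of these mice lay below the control mice (0.446 to 0.676%) on 42 to 46 counts of Psmb9. The Psmb9 share was 0.615% ± 0.0558 with MPTP and 0.544% ± 0.335 with irisin after MPTP. The mice with irisin alone also lay below each MPTP treated mouse (0.5523 to 0.6595%). The shares were described and not tested.

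**Figure D2:**
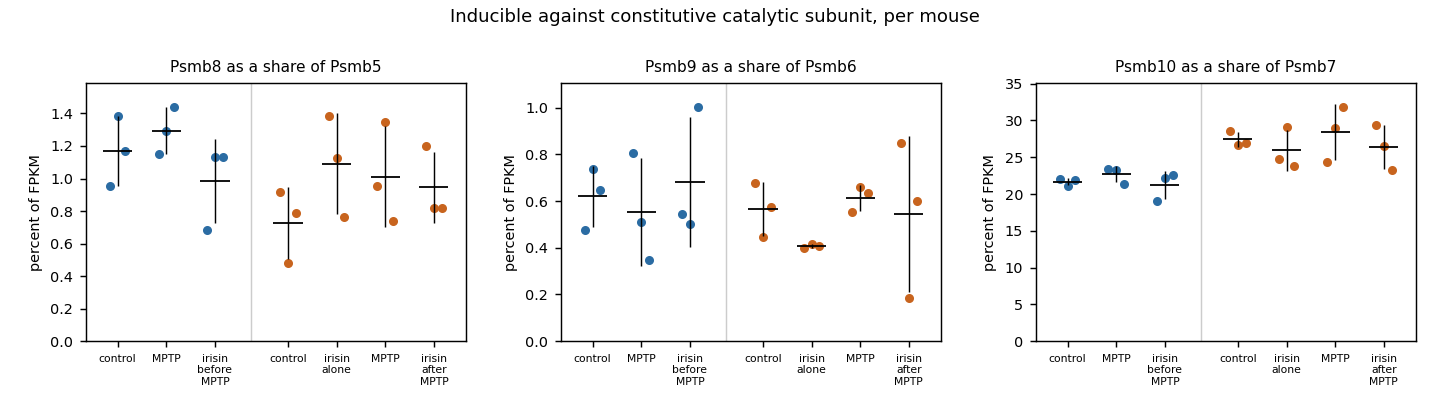
Share of each inducible catalytic subunit relative to its constitutive partner, in percent of FPKM, with one point per mouse and the mean and SD of the 3 mice of each group (blue, pre-treatment experiment; orange, delayed experiment). Psmb8 and Psmb9 stay at or below 1.44% of their partners in every mouse, and Psmb10 between 19.01 and 31.9%.

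Whether MPTP changed proteasome transcripts was asked first in the pre-treatment experiment. After MPTP, 0 of the 49 members tested had an adjusted p under 0.05 (edgeR quasi-likelihood test, adjusted over all genes), where 0.0221% of the 22641 tested genes did. The members leaned to lower values, with a median log2 fold change of -0.053 against -0.002 over all genes, and 10 of 49 (20.4%) had a positive value against 49.6% of all genes. The 95% intervals of all 31 core subunits lay within 1.5-fold in either direction. The smallest lower bound was 0.783 times control for Psmb5 and the largest upper bound 1.14 times for Psmd11. Members share regulation and libraries, so their number is not a number of independent observations.

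The lower values were clearest in the beta ring. Psmb4, which encodes a beta subunit without a proteolytic site, had 112, 106 and 111 CPM in control mice and 97.9, 95.7 and 94.9 CPM in MPTP treated mice. All MPTP treated mice were below all control mice. The log2 fold change was -0.19 ± 0.05 (SE), with an unadjusted p of 0.00531 and an adjusted p of 0.786 by edgeR. With irisin before MPTP the mice stood between the other groups, at 99.7, 101 and 98.5 CPM.

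Psmb6, the caspase-like subunit, had 80.4, 80.2 and 83.4 CPM in control mice and 75.0, 74.4 and 72.4 CPM with MPTP. The groups did not overlap, and the log2 fold change was -0.14 ± 0.05 (unadjusted p = 0.0307, adjusted p = 0.823). These 2 members were the only ones with an unadjusted p under 0.05, against 6.03% of all genes.

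The other catalytic subunits gave like values that did not reach that level. Psmb5, the chymotrypsin-like subunit, had 47.4, 47.1 and 55.4 CPM in control mice and 44.8, 42.4 and 46.2 CPM with MPTP, a log2 fold change of -0.17 ± 0.08 (unadjusted p = 0.0708, adjusted p = 0.833). Psmb7, the trypsin-like subunit, had 135, 147 and 155 CPM against 132, 133 and 134 CPM, a log2 fold change of -0.13 ± 0.06 (unadjusted p = 0.0670, adjusted p = 0.833). Psmb7 overlaps Nek6 on the opposite strand, and the use of strand in counting is not given in the sources used here. In all, 7 of 49 members lay wholly below control, namely Psmb2, Psmb4, Psmb5, Psmb6, Psmb7, Psmc2 and Psmc3, and 0 wholly above, where 5.93% and 5.71% of all genes did so. The 2 ATPases had log2 fold changes of -0.05 and -0.06. Beside these values, the 6 microglial markers summed to 92.8 to 108 CPM with MPTP and 110 to 125 CPM in control mice, without overlap. The dopaminergic markers summed to 529.5 to 845.7 CPM with MPTP and 513.1 to 815.0 CPM in control mice, with overlap. The part of these markers was not tested.

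For the inducible subunits the errors were wider. Psmb8 had 1.72, 2.49 and 2.46 CPM in control mice and 1.96, 2.08 and 2.54 CPM with MPTP, a log2 fold change of -0.02 ± 0.26. Psmb9 had -0.30 ± 0.40 and Psmb10 -0.06 ± 0.09 on the same scale. Psmf1, which encodes the proteasome inhibitor PI31, had 41.6, 39.8 and 24.4 CPM in control mice and 37.2 to 39.7 CPM with MPTP, so that the third control mouse stood apart.

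In the delayed experiment, MPTP treated mice were compared with control mice again, now 5 days of ddH2O after the last MPTP injection. Again 0 of 49 members had an adjusted p under 0.05 (edgeR), where 0.132% of 21922 genes did. The median log2 fold change of the members was -0.043 against -0.001 over all genes, and 18 of 49 were positive (36.7%, against 49.7% of all genes). All 31 core intervals lay within 1.5-fold, from 0.738 times control at the lower bound of Psmd3 to 1.23 times at the upper bound of Psmb4.

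Psmd3, a scaffold subunit of the 19S lid, had the smallest p of the members and the largest fold change of the core. It had 152, 132 and 127 CPM in control mice and 120, 116 and 108 CPM with MPTP, without overlap. The log2 fold change was -0.26 ± 0.08 (unadjusted p = 0.00995, adjusted p = 0.415 by edgeR). Without the first control mouse, which was the highest, the value was -0.18 on the log2 scale. Outside the core, Psme2b had -0.28 on the log2 scale and the scarce Psma8 -0.52, the latter on 11 to 33 counts per mouse.

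Psma4, an alpha ring subunit, had 77.6, 80.5 and 79.8 CPM in control mice and 68.9, 69.2 and 73.4 CPM with MPTP, a log2 fold change of -0.17 ± 0.07 (unadjusted p = 0.0309, adjusted p = 0.539). Psmd3 and Psma4 were the 2 members under an unadjusted p of 0.05, against 8.33% of all genes. In all 7 members lay wholly below control and 0 above, against 7.94% and 8.24% of all genes, and these included the ATPases Psmc3, Psmc4 and Psmc6. Beside these values, the summed dopaminergic markers were 454 to 579 CPM with MPTP and 667 to 701 CPM in control mice, and the 4 neuronal markers 3833 to 3981 CPM and 4150 to 4283 CPM. Their part in the subunits' values was not tested.

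The 2 MPTP comparisons were set against each other in a joint fit of both experiments. The difference was estimated for 50 members, of which 0 had an adjusted p under 0.05, against 0.103% of 23364 genes, and 1 had an unadjusted p under 0.05, against 5.68%. That member was Psmb4, at -0.19 ± 0.05 in the pre-treatment experiment. In the delayed experiment it had 132, 116 and 106 CPM in control mice and 131, 131 and 124 CPM with MPTP, a log2 fold change of 0.13 ± 0.08. The difference was -0.33 ± 0.10 on the log2 scale (unadjusted p = 0.00313, adjusted p = 0.565 by edgeR). The median difference of the members was -0.018, against -0.005 over all genes, and 23 of 50 were positive (46.0%, against 49.3%).

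**Figure D3:**
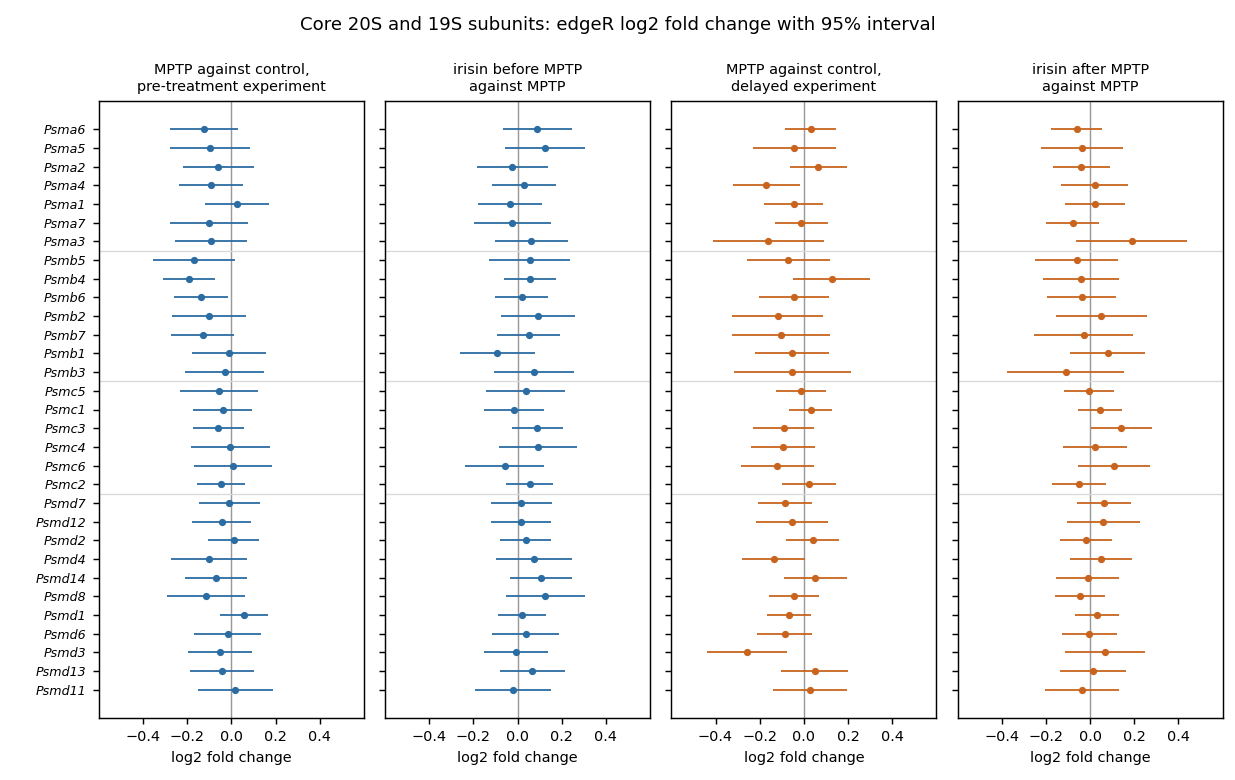
edgeR log2 fold change (points) with its 95% interval (lines) for the 31 core subunits, ordered within each role by level, in 4 comparisons (blue, pre-treatment experiment; orange, delayed experiment). Most points after MPTP in the pre-treatment experiment lie left of 0, led by Psmb4 at -0.19, and Psmd3 lies furthest left after MPTP in the delayed experiment at -0.26.

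Whether irisin given before MPTP altered these values was asked by comparing the irisin and MPTP group with MPTP treated mice. Of 49 members 0 had an adjusted p under 0.05 (edgeR), where 0.0707% of 22641 genes did, and 0 had an unadjusted p under 0.05, where 6.22% did. The median log2 fold change of the members was 0.030 against 0.003 over all genes, and 31 of 49 were positive (63.3%, against 50.7%). In the core 23 of 31 were positive, and all intervals lay within 1.5-fold, from 0.836 times MPTP at the lower bound of Psmb1 to 1.24 times at the upper bound of Psma5. The same MPTP treated mice enter this comparison and the one with control mice, so that a value low in them leads to opposite signs in both.

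In this comparison 8 members, all of the core, lay wholly above MPTP treated mice and 2 wholly below, against 7.14% and 7.08% of all genes. Psmc3, an ATPase of the 19S base, had 117, 114 and 111 CPM with MPTP and 124, 118 and 121 CPM with irisin before MPTP, a log2 fold change of 0.09 ± 0.05 (unadjusted p = 0.113, adjusted p = 0.906 by edgeR). Psmd14, the deubiquitinase of the lid, had 0.11 ± 0.06 on that scale (unadjusted p = 0.121, adjusted p = 0.914). Psmd10 and Psmg3, both assembly chaperones, were the members wholly below, with -0.15 ± 0.09 and -0.22 ± 0.14. Psmb4, Psmb5, Psmb6 and Psmb7 had 0.05 ± 0.05, 0.05 ± 0.08, 0.02 ± 0.05 and 0.05 ± 0.06. These estimates were smaller in size than those of the same genes after MPTP, but the difference in size was not tested. Summed markers of 4 of the 8 cell types did not overlap between these groups. With irisin before MPTP, neuronal markers were at 4122 to 4232 CPM (MPTP 3992 to 4101), astrocyte markers at 725 to 824 CPM (MPTP 837 to 922), endothelial markers at 102 to 107 CPM (MPTP 110 to 121) and blood cell markers at 169 to 330 CPM (MPTP 396 to 592), and their part was not tested.

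Against control mice, irisin before MPTP gave 0 of 49 members with an adjusted p under 0.05, where 0.0707% of all genes passed. Unadjusted, 2 were under 0.05, against 7.12%. Psmb4 had a log2 fold change of -0.14 ± 0.05 (unadjusted p = 0.0283, adjusted p = 0.648 by edgeR). Psmd10 had 19.1, 19.7 and 21.4 CPM in control mice and 17.4, 18.0 and 16.2 CPM with irisin before MPTP, a log2 fold change of -0.22 ± 0.09 (unadjusted p = 0.0293, adjusted p = 0.648). Psmb6 followed with -0.12 ± 0.05 (unadjusted p = 0.0528, adjusted p = 0.710). These 3 lay wholly below control and Psmd1 wholly above, where 6.92% and 6.65% of all genes did so. The median of the members was -0.029, against 0.004 over all genes, and 19 of 49 were positive (38.8%, against 50.8%). The 4 blood cell markers summed to 169 to 330 CPM in this group and 379 to 602 CPM in control mice, and the microglial markers to 92.4 to 106 CPM and 110 to 125 CPM. Their part in these values was not tested.

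Irisin alone was compared with control mice in the delayed experiment, the same control mice as in the comparison with MPTP. Of 49 members 0 had an adjusted p under 0.05 (edgeR), where 0.109% of 21922 genes did, and 5 had an unadjusted p under 0.05, where 8.97% did. Psmd8, a subunit of the 19S lid, had 89.9, 83.8 and 85.0 CPM in control mice and 77.7, 76.9 and 75.7 CPM with irisin, without overlap, a log2 fold change of -0.17 ± 0.05 (unadjusted p = 0.00754, adjusted p = 0.435). Psmd3, also of the lid, had 117, 115 and 111 CPM with irisin, a log2 fold change of -0.26 ± 0.08 (unadjusted p = 0.00889, adjusted p = 0.445), or -0.18 without the first control mouse.

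Psmc1, an ATPase of the 19S base, was higher than control in all 3 mice, with 213, 202 and 219 CPM against 195, 197 and 190 CPM, a log2 fold change of 0.12 ± 0.04 (unadjusted p = 0.0205, adjusted p = 0.516). Psmb1, a beta subunit without a proteolytic site, had 0.18 ± 0.08, with overlap (unadjusted p = 0.0383, adjusted p = 0.539), and Psmc3ip, no subunit, had -0.57 ± 0.23 (unadjusted p = 0.0296, adjusted p = 0.531). The members had a median log2 fold change of -0.014 against -0.002 over all genes, with 23 of 49 positive (46.9%, against 49.5%). In all 7 lay wholly below control and 1 above, against 7.68% and 7.43% of all genes. Summed markers of 3 of the 8 cell types lay wholly below control with irisin alone. These were neuronal markers at 3975 to 4078 CPM (control 4150 to 4283), dopaminergic markers at 623 to 631 CPM (control 667 to 701) and astrocyte markers at 1030 to 1074 CPM (control 1125 to 1344), and their part in these values was not tested.

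Irisin after MPTP was compared with MPTP treated mice of the same experiment. Of 49 members 0 had an adjusted p under 0.05 (edgeR), where 0.00456% of 21922 genes did, and 1 had an unadjusted p under 0.05, where 3.9% did. That member was Psmc3, with 135, 134 and 135 CPM after MPTP and 141, 151 and 154 CPM with irisin after MPTP. The groups did not overlap, and the log2 fold change was 0.14 ± 0.06 (unadjusted p = 0.0467, adjusted p = 0.9995). Control mice had 141, 139 and 152 CPM of Psmc3, all above the MPTP treated mice. The same MPTP treated mice enter both comparisons, so that a value low in them leads to opposite signs in both. Psmc3 overlaps Slc39a13 on the opposite strand.

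The median log2 fold change of the members was -0.005, against a median of all genes within 0.001 of 0, and 22 of 49 were positive (44.9%, against 49.9% of all genes). All core intervals lay within 1.5-fold, from 0.770 times MPTP for Psmb3 to 1.36 times for Psma3. Psmc3 lay wholly above MPTP treated mice and Psma6 wholly below, where 5.35% and 5.38% of all genes did so. The inducible subunits Psmb8, Psmb9 and Psmb10 had log2 fold changes of -0.18 ± 0.30, -0.24 ± 0.41 and -0.14 ± 0.10.

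Against control mice, irisin after MPTP gave 0 of 49 members with an adjusted p under 0.05, where 0.109% of all genes passed, and 2 with an unadjusted p under 0.05, where 9.31% did. Psme2, the beta subunit of the interferon-inducible activator PA28, had 17.4, 14.7 and 15.2 CPM in control mice and 13.7, 12.8 and 13.3 CPM with irisin after MPTP, a log2 fold change of -0.25 ± 0.10 (unadjusted p = 0.0283, adjusted p = 0.487 by edgeR). Psmd3 had 108, 123 and 129 CPM, a log2 fold change of -0.19 ± 0.08 (unadjusted p = 0.0415, adjusted p = 0.516), and without the first control mouse -0.11. In all 5 members lay wholly below control and 2 above, against 7.17% and 7.41% of all genes, and 18 of 49 were positive (36.7%, against 49.9%). The dopaminergic markers summed to 466 to 536 CPM in this group, against 667 to 701 CPM in control mice, and the neuronal markers to 3911 to 4123 CPM, against 4150 to 4283 CPM. Their part was not tested.

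Whether irisin acted differently with and without MPTP was tested as an interaction in the delayed experiment. Of 49 members 0 had an adjusted p under 0.05 (edgeR), where 0.0411% of all genes did, and 1 had an unadjusted p under 0.05, where 5.57% did. This was Psmd3, with a log2 fold change of -0.26 ± 0.08 for irisin alone against control mice and 0.07 ± 0.08 for irisin after MPTP against MPTP treated mice. The interaction was 0.33 ± 0.12 on the log2 scale (unadjusted p = 0.0169, adjusted p = 0.893), and 0.25 without the first control mouse. Of the members 24 of 49 were positive (49.0%, against 50.5% of all genes). Of the core, 30 of 31 intervals lay within 1.5-fold, the exception being Psmd3, whose interval reached 0.59 on the log2 scale.

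The effect of irisin on MPTP treated mice was also set side by side between the experiments in the joint fit. Of 50 members 0 had an adjusted p under 0.05, where 0.077% of 23364 genes did, and 0 had an unadjusted p under 0.05, where 5.69% did. The median difference, pre-treatment minus delayed, was 0.047 against 0.009 over all genes, and 31 of 50 were positive (62.0%, against 51.3%). Psmd8 had the smallest p, with a difference of 0.18 ± 0.09 (unadjusted p = 0.0505, adjusted p = 0.875 by edgeR). Core intervals lay within 1.5-fold, from 0.747 for Psma3 to 1.42 for Psmb3.

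**Figure D4:**
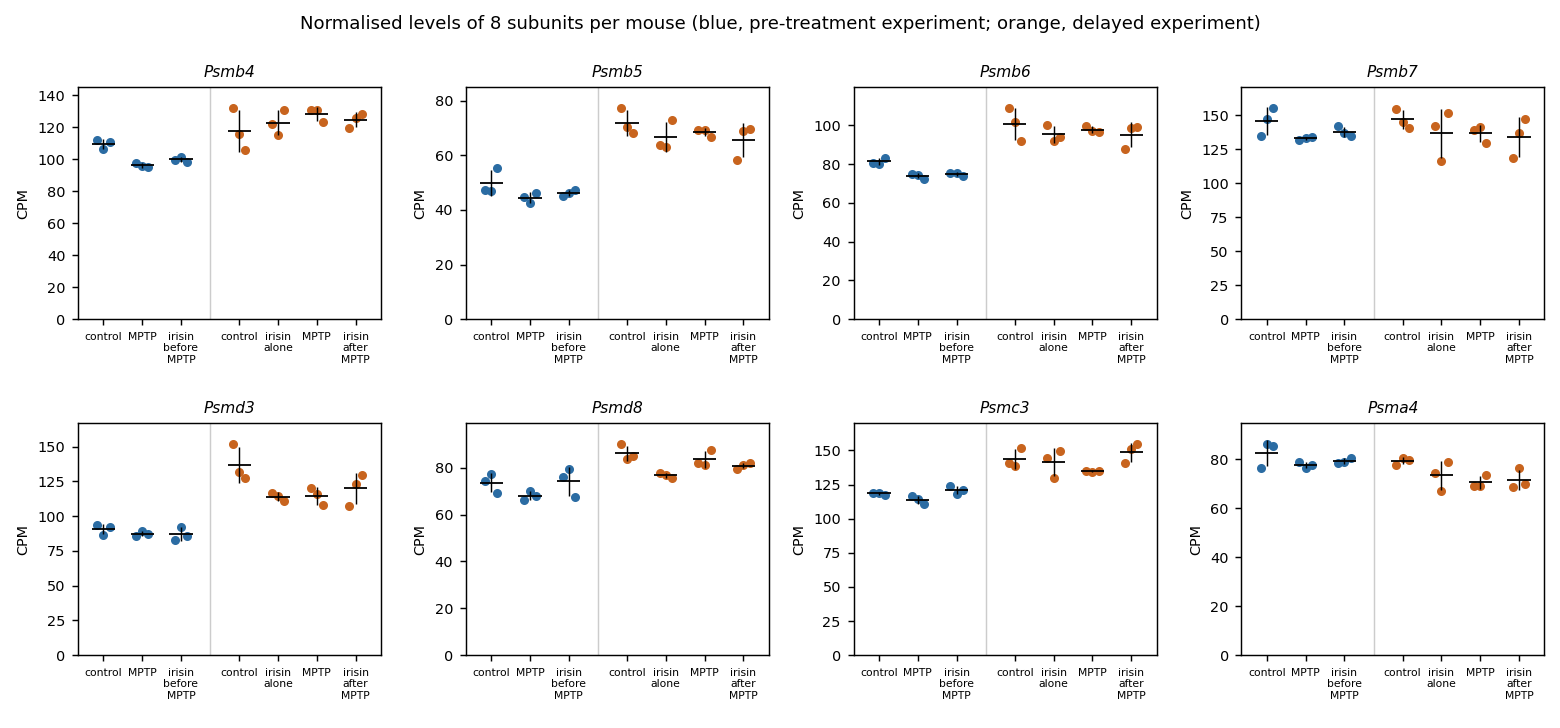
CPM of 8 subunits in each mouse, with the mean and SD of the 3 mice of each group (blue, pre-treatment experiment; orange, delayed experiment) and axes from 0. The 3 MPTP treated mice of the pre-treatment experiment lie below the 3 control mice for Psmb4 to Psmb7, and in the delayed experiment the control group has the highest mean for Psmd3.

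Genes that work with the proteasome were read from a list of 36, of which 35 were matched by name and tested. These were subunits and assembly factors with other names, ubiquitin enzymes bound to the cap, shuttle proteins and transcription regulators, among others. In each of the 10 comparisons 0 of 35 had an adjusted p under 0.05, where 0.00456 to 0.132% of all genes did. Between 0 and 5 had an unadjusted p under 0.05. The highest share was 14.3% of the list for MPTP in the delayed experiment, against 8.33% of all genes, and in the other comparisons it was 0 to 8.6%, against 3.9 to 9.31%. The median log2 fold change of the list lay between -0.019 and 0.026.

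Nfe2l1, the transcription factor of subunit genes, was the partner with the widest values. Its CPM were 45.0, 57.7 and 48.5 in control mice of the pre-treatment experiment and 343, 361 and 352 with MPTP, a log2 fold change of 2.80 ± 0.63 (unadjusted p = 0.00175, adjusted p = 0.582 by edgeR). With irisin before MPTP the mice had 58.4, 323 and 56.2 CPM. Mice therefore had either a low or a high value and none between them, and the same was seen in the delayed experiment.

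There, Nfe2l1 was at 453, 63.0 and 69.9 CPM in control mice, and at 72.3, 463 and 462 CPM with irisin alone. It was at 483, 453 and 475 CPM with MPTP and at 72.3, 466 and 69.8 CPM with irisin after MPTP. High and low mice thus occurred within 4 of the 7 groups, which the group labels do not account for.

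Within groups, the core subunits did not part into levels so far apart. Deviations are taken from the group's mean, so they cannot show a level shared by all mice of a group. The median deviation of the 31 core subunits from their group's mean lay between -0.032 and 0.026 on the log2 scale over the mice of the pre-treatment experiment and between -0.063 and 0.067 over those of the delayed experiment. In control mice of the delayed experiment the mouse high for Nfe2l1 had a deviation of 0.046, and the other two -0.002 and -0.060. With irisin alone the mice high for Nfe2l1 had -0.063 and 0.067 and the low mouse 0.016. With irisin after MPTP the high mouse had 0.033 and the low mice -0.060 and 0.031. With irisin before MPTP the high mouse had 0.013 and the low mice 0.011 and -0.016. The mouse with the highest deviation was high for Nfe2l1 in each of these 4 groups. It led a low mouse by little with irisin after MPTP (0.033 against 0.031) and with irisin before MPTP (0.013 against 0.011). With irisin alone the mouse with the lowest deviation was high too. A link between Nfe2l1 and the core was not tested.

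**Figure D5:**
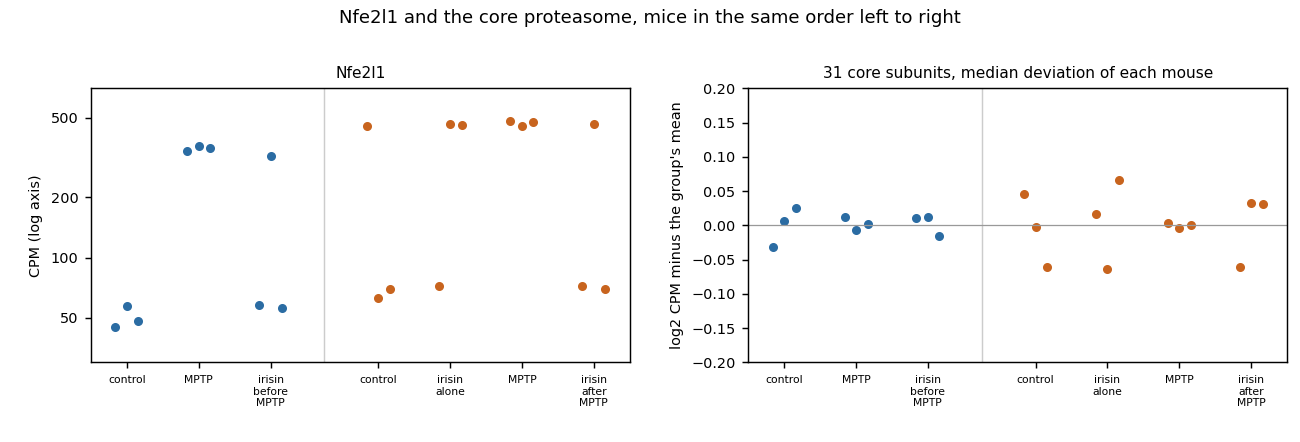
Left, CPM of Nfe2l1 in each mouse on a log axis. Right, the median deviation of the 31 core subunits of the same mouse from its group's mean, in log2 CPM, with mice in the same order within a group. Nfe2l1 takes a low level of 45.0 to 72.3 CPM or a high level of 323 to 483 CPM. The deviations of the core within a group stay between -0.063 and 0.067.

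Among the other partners, Ipo9, an importin that carries proteasomes into the nucleus, had 146, 139 and 140 CPM in control mice and 166, 177 and 165 CPM with MPTP in the delayed experiment. The log2 fold change was 0.26 ± 0.05 (unadjusted p = 0.000304, adjusted p = 0.127 by edgeR). With irisin after MPTP it was 0.27 ± 0.05 against the same control mice (adjusted p = 0.111). In the pre-treatment experiment Ipo9 had 183.5, 149.5 and 128.0 CPM in control mice and 182.4, 148.5 and 175.4 CPM with MPTP, with overlap. With irisin before MPTP against these control mice it had 0.34 ± 0.13, also with overlap between the groups (adjusted p = 0.650).

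The genes that present proteasome products on MHC class I formed a list of 8. In each comparison 0 of 8 had an adjusted p under 0.05 (edgeR), where 0.00456 to 0.132% of all genes did. Their median log2 fold change ran from -0.194 with irisin alone to 0.155 for the interaction. The median over all genes with irisin alone is given above. Erap1, which trims peptides for MHC class I, had 11.5, 10.99 and 14.7 CPM in control mice of the delayed experiment and 16.4, 15.3 and 16.8 CPM with MPTP, a log2 fold change of 0.39 ± 0.14 (unadjusted p = 0.0212, adjusted p = 0.493). H2-D1, an MHC class I chain, had 90.7, 80.6 and 78.8 CPM in control mice and 61.9, 70.0 and 76.9 CPM with irisin alone, -0.26 ± 0.10 on the log2 scale (unadjusted p = 0.0239, adjusted p = 0.519). Neither comparison had overlapping groups for these genes. Of all genes, 8.24% lay wholly above control with MPTP and 7.68% wholly below control with irisin alone. In the pre-treatment experiment the Erap1 groups overlapped after MPTP, with a log2 fold change of 0.16 ± 0.16. Irisin alone was not given there. With irisin before MPTP, H2-D1 had -0.08 ± 0.08 against MPTP treated mice and 0.01 ± 0.08 against control mice, both with overlap.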

How the data were processed

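Per the labels and methods, the authors sequenced midbrain RNA on an Illumina NovaSeq and counted reads with featureCounts. The submitters' notes name HISAT, StringTie, edgeR and mm9, but the coordinates given for genes match GRCm38 (43 of 50 members have start and end as in GENCODE M21). Whether strand was used in counting is not given in the sources used here. The deposited tables hold the raw count and the FPKM of each gene in each mouse, and the authors' FPKM follow from the counts with a fixed length per gene. Here counts were tested with edgeR 4.0.16 in R 4.3.3 (filterByExpr, least count 10, least total count 15, TMM scaling, quasi-likelihood test, two-sided), with all groups of an experiment in one fit and genes of both tables in a joint fit, and p-values were adjusted (Benjamini-Hochberg) over all tested genes. CPM divide counts by the TMM-scaled library size. SD are between the 3 mice of a group, pooled over groups where a single SD is given for an experiment. SE and intervals of log2 fold changes come from the edgeR fit. Their variance is estimated from all mice of the fit and moderated over genes. The p-values set a fold change against that variance, with 3 mice per group.

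The members and lists were chosen with earlier results of these data known. Values are given for members with an adjusted p under 0.05, the 3 with the smallest unadjusted p under 0.05 in each comparison, Psmb5 to Psmb10, the highest and lowest member of each role in FPKM, members removed by the filter, and the partner or antigen gene with the smallest p in each comparison. Some of these partner and antigen genes are not reported here. Psmf1, Psmd14, Psmg3, Psma6 and Psmd1 were named after their values were seen, as were Psma3, Psma5, Psmb1, Psmb2, Psmc4 and Psmc6. Alternatives were other scalings, no filter, a replicate block, DESeq2 1.42.0, limma 3.58.1 on log2(FPKM + 1) and log2(FPKM + 0.1), only the 2 compared groups, and leaving out each mouse. Steps were tested on simulated data. Promoters are from RefSeq (GRCm38.p6). Figures were drawn with matplotlib in Python.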

Additional observations from a re-analysis of the deposited data

Results flagged for a closer look

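Psma6, an alpha ring subunit, was flagged for groups without overlap in opposite directions with irisin in MPTP treated mice of the 2 experiments. Of all genes, 7.14% lay wholly above MPTP treated mice in the pre-treatment experiment and 5.38% wholly below in the delayed one. The share of all genes that did both was not counted. In the pre-treatment experiment all 3 mice given irisin before MPTP (124, 132 and 128 CPM) lay above the 3 MPTP treated mice (122, 117 and 122 CPM), a log2 fold change of 0.09 ± 0.07. In the delayed experiment all 3 mice given irisin after MPTP (111, 110 and 115 CPM) lay below the 3 MPTP treated mice (116, 115 and 119 CPM), a log2 fold change of -0.06 ± 0.05. The difference was 0.16 ± 0.08 on the log2 scale, with an unadjusted p of 0.0740 and an adjusted p of 0.895 in the joint edgeR fit, so it did not pass the threshold.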

How the results depend on the processing

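In each of the 10 comparisons the number of members with an adjusted p under 0.05 was 0 under every alternative run, DESeq2 and the replicate block included. The replicate numbers did not pair the mice: correlations between same-numbered mice of different groups were -0.0776 to 0.101 with pre-treatment and -0.0765 to 0.0387 with delayed treatment. With the replicate block, 1 member in place of 2 had an unadjusted p under 0.05 after MPTP in the pre-treatment experiment, and 0 in place of 2 for irisin before MPTP against control. Leaving out 1 mouse, the median log2 fold change of the members was -0.062 to -0.002 for irisin before MPTP against control, lowest without the first control mouse, and -0.073 to 0.019 for the difference of the MPTP effects, lowest without the first control mouse of the delayed experiment. The number of members under an unadjusted p of 0.05 moved with single mice. After MPTP in the pre-treatment experiment it was 5 without the first control mouse, 4 without the second, and 1 without the remaining one or without either the second or the last MPTP treated mouse. With irisin alone it was 3 to 6 and in the other comparisons 0 to 3, and the cause was not tested.

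Over all genes, DESeq2 called more genes at an adjusted p under 0.05 than edgeR. The counts were 91 against 5 for MPTP in the pre-treatment experiment, 168 against 16 for irisin before MPTP, 191 against 16 for that group against control, 179 against 29 for MPTP in the delayed experiment, 140 against 24 for irisin alone, 32 against 1 for irisin after MPTP and 148 against 24 for that group against control. They were 62 against 9 for the interaction, 72 against 18 for the difference of the irisin effects and 80 against 24 for that of the MPTP effects. The fold between the highest and lowest core subunit was 18.3 and 20.1 in FPKM and 5.38 and 5.24 in CPM. From raw counts, without length, the shares were 2.78 to 4.92% for Psmb8, 0.824 to 1.37% for Psmb9 and 10.6 to 14.2% for Psmb10. The median SE of a core log2 fold change was 0.067 and 0.066 in the 2 experiments. An SE is not a limit of detection, and differences well above it also did not pass the adjusted threshold with 3 mice per group. Among these were Psmd3 at -0.26 after MPTP in the delayed experiment and the Psmb4 difference of MPTP effects at -0.33.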
